A study of Mus musculus with 16 samples.

Results

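Axon guidance ligands and receptors are described here as the genes of 8 families, the ephrins, semaphorins, Slits and netrins on the ligand side and the Eph receptors, plexins, Robos and Unc5 receptors on the receptor side. They were taken by the start of the gene symbol, which gave 68 genes read by 145 probe sets (groups of short probes against the same transcript) out of 18194 genes and 45101 probe sets on the array. The rule also took 3 genes of similar name that belong to none of these families, Unc50, Unc5cl and the antisense RNA Plxna4os1, so that 35 ligand genes with 77 probe sets and 30 receptor genes with 63 probe sets remained. Expression was profiled with Affymetrix arrays in 8 groups of 2 samples: the cerebellum (cb) and the rest of the brain (Br, the whole brain without cerebellum), each from WT and homozygous SINE KO littermates, female and male, on a C57BL/6J background. The KO mice come from a single founder line and carry a 4-bp deletion beside the start codon in the SINE exon of a brain transcript of Pgc1α, a coactivator of transcription. The deletion leaves that transcript in place and is predicted to abort its translation. The authors found less total PGC1α protein in mutant brain by Western blot and interpret this as loss of the protein from that transcript. Mice were matched for age, but their age is not given in the sources used here, and the labels do not say which cb and Br samples came from 1 animal.

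Guidance cues steer growing axons by attraction or repulsion at the growth cone, and many of them are kept in the adult brain, where they act at synapses and on blood vessels. Ephrins are bound to the membrane and signal to Eph receptor kinases on touching cells. Semaphorins are secreted or membrane-bound ligands of the plexins, with neuropilins as coreceptors for most of the secreted ones. Slits are secreted repellents read by Robo receptors, and netrins are secreted cues that attract through Dcc and repel through Unc5 receptors. In the cerebellum these families are known for guiding granule cell migration, Purkinje cell afferents and the crossing of hindbrain axons.

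The deposited values are not intensities. They take 5 distinct values, which were read here as levels of a detection call: level 2 as detected, level 1 as marginal, and everything lower, which includes 2 rare levels below 0, as not detected. This reading was inferred, and no source states it. Under it, the 5 probe sets of Actb and the 3 of Gapdh, genes used by every cell, were detected on all 16 arrays, and both probe sets of the Y-linked Eif2s3y were detected on the 8 arrays of males and on those of no female. Of 3 probe sets of Xist, transcribed from the inactive X chromosome, 2 were detected on the 8 female arrays alone and 1 on all 16, males included. Calls hold no amounts: a gene seen on all arrays may still differ between groups, and no fold change can be had. From 25517 to 28155 probe sets, or 56.6% to 62.4%, were detected per array. All 5 probe sets of Ppargc1a, the gene of Pgc1α, were detected on all 16 arrays, which checks no genotype label because the deletion leaves the transcript in place. Forebrain neuron markers parted the brain parts, at 38.5% to 53.8% of their 13 probe sets on cb arrays and 69.2% to 76.9% on Br arrays. The other lists were as short, with 19 probe sets for granule cells, 13 for Purkinje cells and 14 for the brain stem. Small differences in these shares therefore rest on few probe sets. Cerebellar markers overlapped, those of granule cells at 68.4% to 100% and 42.1% to 73.7% and those of Purkinje cells at 69.2% to 100% and 61.5% to 100%. KO Br female replicate 1 was the highest Br array for both, at 73.7% and 100%. WT cb female replicate 2 stood apart from the other cb arrays, with the lowest granule cell share (68.4%, the others 89.5% to 100%) and the highest forebrain share (53.8%, the others 38.5% to 46.2%). Brain stem markers stood at 78.6% and 71.4% on the KO cb female arrays, at 35.7% on WT cb female replicate 1 and at 7.14% on the other 5 cb arrays. On the Br arrays they stood at 0% to 35.7%, below both KO cb female arrays. Per the methods, remnants of the brain stem were cleaned off by gross dissection before the brains were split.

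The upstream sequences of 4 genes are shown, as examples of the genes called between the brain parts: a Robo (Robo3), an Eph receptor (Ephb3) and a semaphorin (Sema3e) seen more in Br, and Epha8, the 1 called gene seen more in cb. Each is the 250 bases before the gene's start, 5′ to 3′ on the gene's strand, from RefSeq on GRCm38.p6. Capitals mark GGGCGG, the GC box of promoters, on either strand.
Robo3, chr9:37433176-37433425, minus strand: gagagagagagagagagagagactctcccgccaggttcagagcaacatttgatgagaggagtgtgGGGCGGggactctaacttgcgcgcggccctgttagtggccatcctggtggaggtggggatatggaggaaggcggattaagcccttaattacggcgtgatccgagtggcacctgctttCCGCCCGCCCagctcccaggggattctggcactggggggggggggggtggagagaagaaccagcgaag
Ephb3, chr16:21204545-21204794, plus strand: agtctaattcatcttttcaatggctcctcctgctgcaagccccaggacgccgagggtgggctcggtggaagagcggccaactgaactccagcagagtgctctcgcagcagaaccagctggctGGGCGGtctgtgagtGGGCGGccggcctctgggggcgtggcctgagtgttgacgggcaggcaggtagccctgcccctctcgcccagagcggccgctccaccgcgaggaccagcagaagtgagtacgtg
Sema3e, chr5:14025026-14025275, plus strand: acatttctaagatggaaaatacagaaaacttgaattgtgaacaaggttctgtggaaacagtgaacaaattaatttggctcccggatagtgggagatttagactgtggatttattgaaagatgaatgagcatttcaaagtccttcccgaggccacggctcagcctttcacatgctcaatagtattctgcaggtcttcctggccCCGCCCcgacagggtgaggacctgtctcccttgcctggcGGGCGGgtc
Epha8, chr4:136956817-136957066, minus strand: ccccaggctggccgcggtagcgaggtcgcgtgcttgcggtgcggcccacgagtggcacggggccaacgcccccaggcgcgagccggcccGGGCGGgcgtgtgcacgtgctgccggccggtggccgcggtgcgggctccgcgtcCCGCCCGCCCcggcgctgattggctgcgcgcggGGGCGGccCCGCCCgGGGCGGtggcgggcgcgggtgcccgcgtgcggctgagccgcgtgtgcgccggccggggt
The Epha8 window held 6 matches, overlapping ones included, with 84% G and C, against 3 matches and 61.2% for Robo3, 2 and 65.6% for Ephb3, and 2 and 48% for Sema3e. GGGCGG on either strand stood in 32.7% of all 32851 promoters of the table and in 71.6% of the 74 promoters of the 58 member genes that matched it. It stood in 17 of 27 promoters (63%) of members with every probe set detected on all arrays, and in 7 of 8 of members that differed between the brain parts (7 of 8 such genes matched, 1 of them with 2 promoters). TATAAA on either strand stood in none of these 8, in 0 of the 27, in 2 of the 74 member promoters (2.7%) and in 12.4% of all. Its lack was thus shared by nearly all members. A match is a description of the letters only.

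Most guidance genes were seen everywhere. Of the 68 genes, 47 had a probe set detected on all 16 arrays, 14 were detected on some arrays only, and 7 on none. By probe set, 75 of 145 (51.7%) were detected on all arrays, 38 (26.2%) on some and 32 (22.1%) on none, beside 48%, 25% and 27% of all 45101 probe sets. The genes with no detected probe set were the ephrin Efna4, the Eph receptors Epha2 and Ephb4, the netrin Ntn5, the semaphorin Sema6c, the Slit Slit3 and Unc5cl. Sema6c was seen by none of its 3 probe sets, while the other 6 genes had 1 probe set each.

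**Figure D1:**
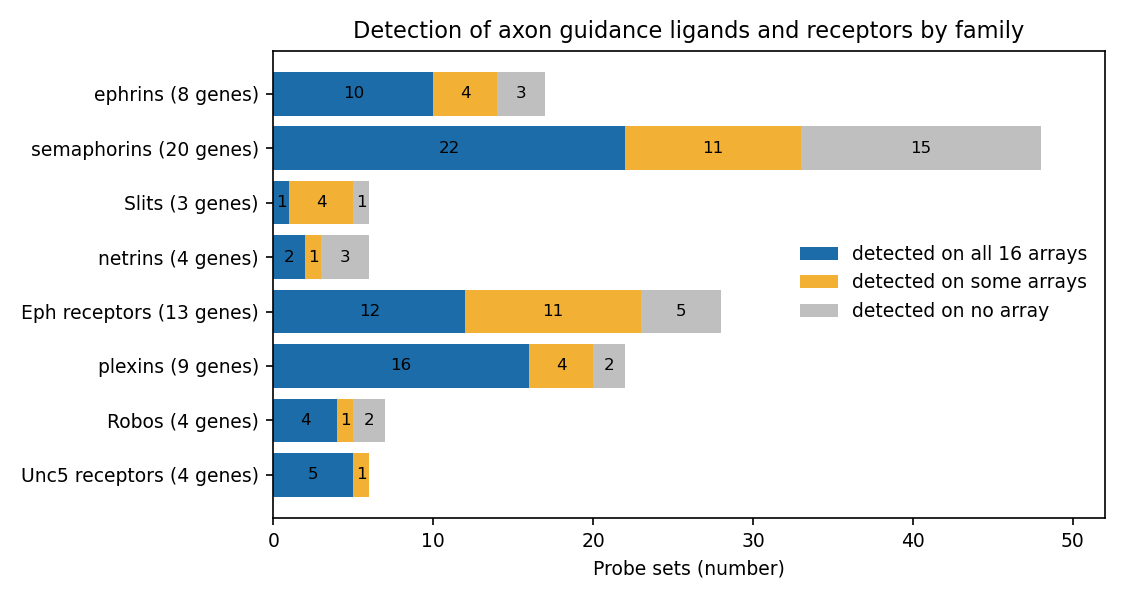
Number of probe sets (horizontal axis) of each ligand and receptor family (vertical axis, ligand families first) that were detected on all 16 arrays, on some and on none. Plexins and Unc5 receptors had most of their probe sets on all arrays, 16 of 22 and 5 of 6, and the netrins had 2 of 6.

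Receptors were seen more widely than ligands by probe set, but not by gene, with 21 of 30 receptor genes and 25 of 35 ligand genes on all arrays. On average over the arrays, 71.6% of receptor probe sets were detected in cb and 79.2% in Br, against 53.2% and 61% of ligand probe sets. All 9 plexin genes had a probe set detected on every array, and for Plxna3, Plxna4, Plxnb1 and Plxnb2, among others, every probe set was. Among the Unc5 receptors, which mediate repulsion by netrins, this held for Unc5b, Unc5c and Unc5d, and the single Unc5a probe set was missing on 1 array, KO cb male replicate 2. Robo2, a neuronal Slit receptor, and Robo4, known from endothelium, were likewise detected by their only probe set on all arrays. Of the Eph receptors, Epha10 and Ephb1 were, whereas 5 of the 13 genes were seen on some arrays only.

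Among the ligands, Efna3, Efnb1 and Efnb3 had every probe set detected on all arrays. The 20 semaphorin genes differed by class. All 6 class 4 genes, which encode membrane-bound semaphorins, were detected on every array, and Sema4a, Sema4c, Sema4f and Sema4g were so by every probe set. Of the 7 class 3 genes, the secreted semaphorins, 5 were, and Sema3g was so by its only probe set. Class 6, with membrane-bound ligands of the class A plexins, had 2 of 4 genes on all arrays, 1 on some and 1 on none. Slits and netrins, the other secreted ligands, had the lowest shares of the 8 families in cb, 39.6% of 6 probe sets and 33.3% of 6. By class, some semaphorins were as low in cb, class 6 at 34.1% of 11 probe sets and class 3 at 40.3% of 18. In Br the netrins stood at 37.5%, and the Slits, at 72.9%, were within the range of the other families.

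Probe sets of the same gene often disagreed. Of 43 genes with several probe sets, 15 had one detected on all arrays and another detected on none, among them Plxna1, Robo1, Ntn1 and Sema7a. For these genes a call describes the stretch of transcript that a probe set reads, and not the gene. Of the 20 members whose name ends in _a_at, which marks a probe set that reads several transcripts of 1 gene, 10 were detected on no array and 4 on all, against 21 and 67 of the 119 that end in plain _at.

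The brain parts differed in which guidance genes were seen, and mostly in one direction. On each array 84 to 94 of the 145 probe sets were detected in cb (57.9% to 64.8%) and 97 to 104 in Br (66.9% to 71.7%), so the 8 cb and 8 Br arrays did not overlap. The mean was 61.6% ± 2.09 (SD, n = 8) in cb and 68.9% ± 1.69 (SD, n = 8) in Br, a difference of -7.33 percentage points. Over all 45101 probe sets it was -1.19, from 59.1% to 60.3%. In females the difference of the members was -6.72 points and in males -7.93. When a gene was taken as seen if at least 1 of its probe sets was, 50 to 55 genes were detected in cb and 54 to 56 in Br, and the difference was -4.04 points. In whole-tissue samples like these, fewer cells of a type and less RNA per cell cannot be told apart.

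**Figure D2:**
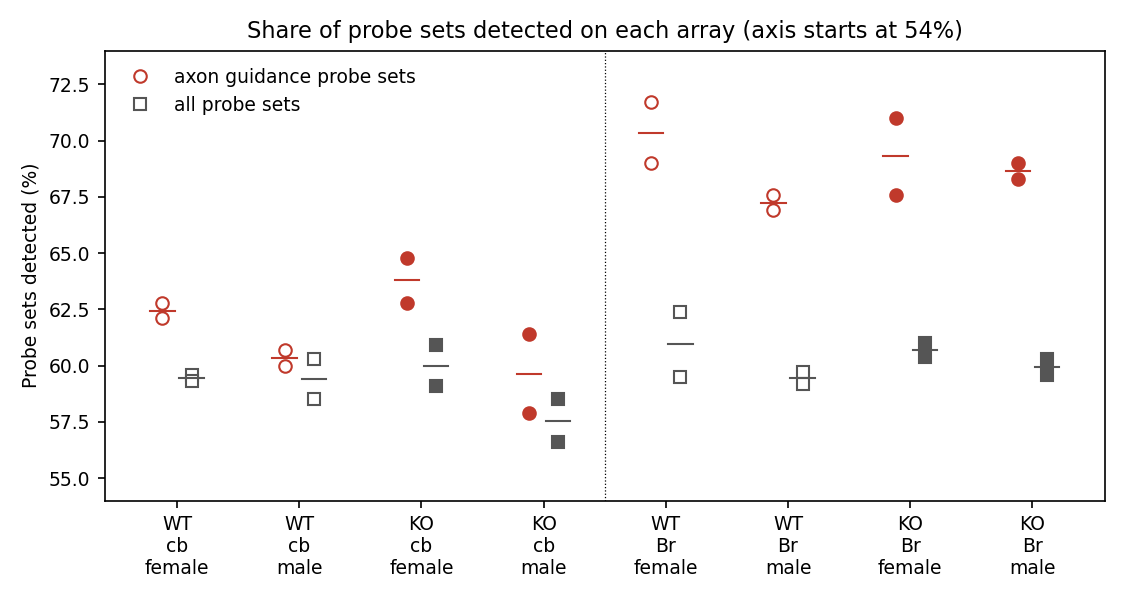
Share of probe sets detected (vertical axis, %, starting at 54%) on each of the 16 arrays, by group (horizontal axis), for the 145 axon guidance probe sets (red circles) and all 45101 probe sets (grey squares). Open symbols are WT, filled symbols KO, and short lines group means of 2 arrays. The guidance share was 57.9% to 64.8% on the cb arrays and 66.9% to 71.7% on the Br arrays.

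The difference lay in the 38 members that varied between arrays. Of them, 30 (78.9%) were detected on more Br than cb arrays and 8 on more cb arrays. Among the 11269 probe sets of the whole table that varied, 5717 (50.7%) were detected on more Br arrays and 4347 on more cb arrays. The rest of those were detected on as many of both, which no member was. Of the 38 members, 17 were detected on all 8 Br arrays and fell short only in cb. Another 2 were detected on all 8 cb arrays and fell short only in Br. Among the varying probe sets, those of Eph receptors (9 of 11), semaphorins (8 of 11), Slits (all 4) and plexins (all 4) leaned to Br. Robos, netrins and Unc5 receptors had only 1 varying probe set each, detected on more Br arrays. The netrin one, of Ntn3, was on 2 Br and 0 cb arrays, and that of Unc5a on 8 and 7. The ephrins had 2 each way.

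**Figure D3:**
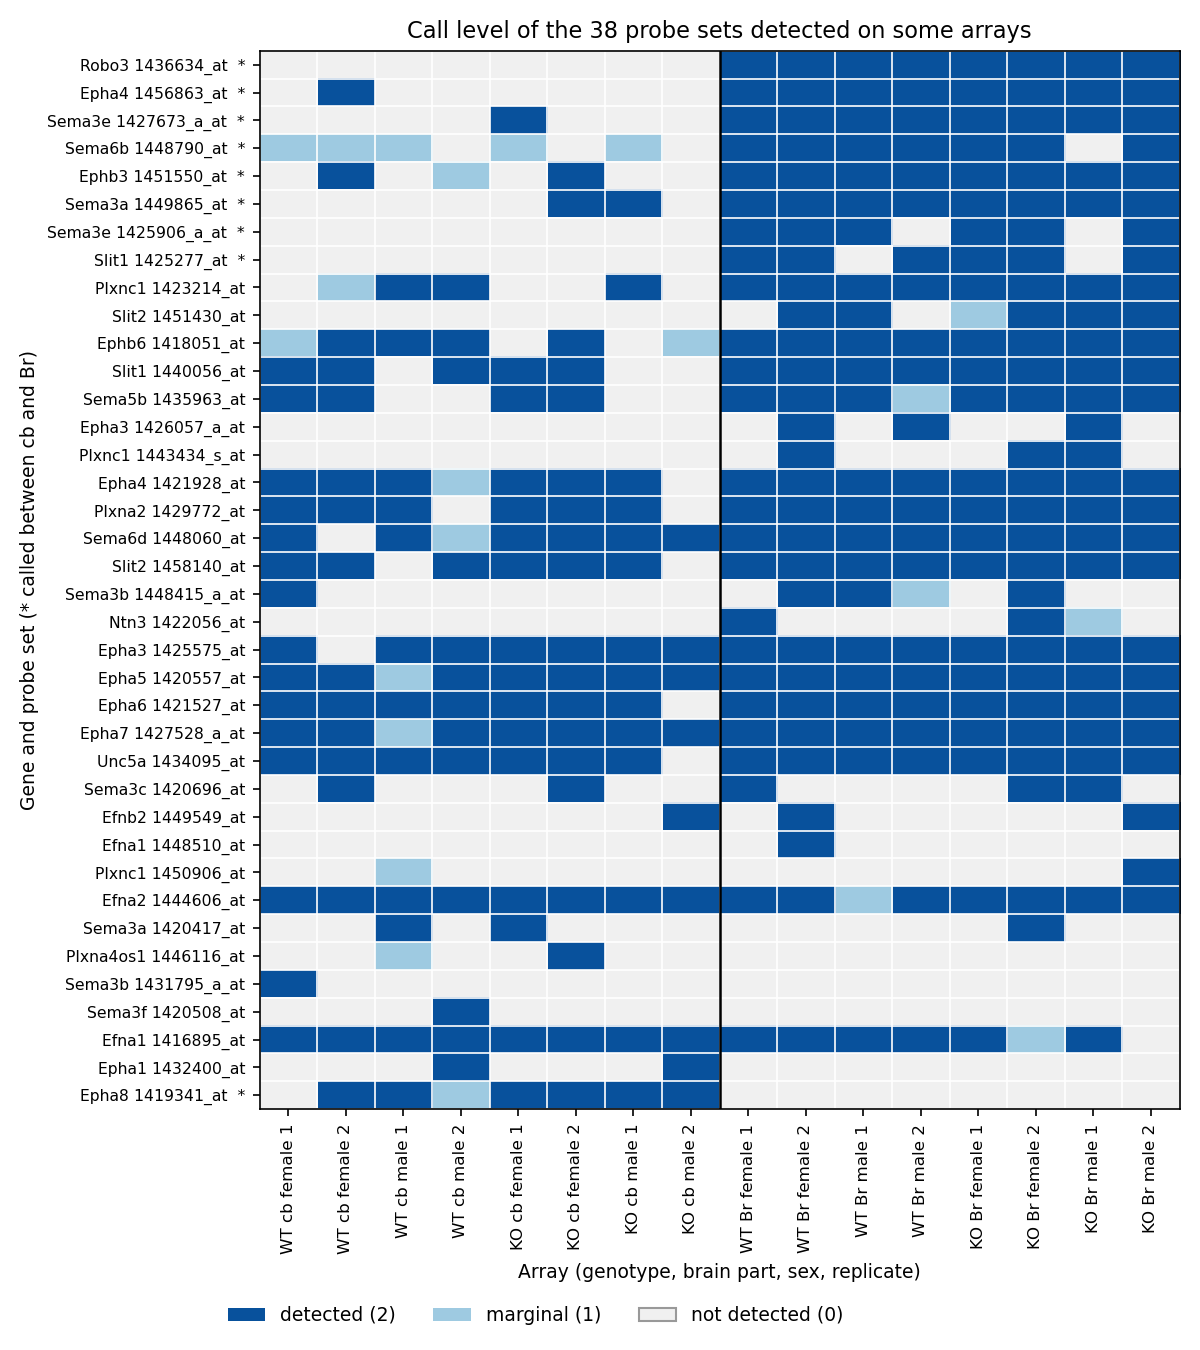
Call level of the 38 members that varied between arrays (vertical axis, gene and probe set, ordered by the difference in arrays detected, Br minus cb) on each of the 16 arrays (horizontal axis, cb left of the line, Br right of it). Dark cells are detected, light blue cells marginal and grey cells not detected, and a star marks the 9 probe sets that differed between the brain parts. Robo3, at the top, was detected on 8 Br and 0 cb arrays, and Epha8, at the bottom, on 6 cb and 0 Br arrays.

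Each probe set was tested with Fisher's exact test, two-sided, on detected or not over 8 cb and 8 Br arrays. A probe set detected on fewer than 5 or more than 11 of the 16 arrays cannot reach an exact p under 0.05 in this design, so the test was run over the 3873 probe sets within these bounds, with Benjamini-Hochberg adjustment over them. It called 662 of them (17.1%), 447 (11.5%) detected on more Br arrays and 215 (5.55%) on more cb arrays. Of the 38 varying members 13 were within the bounds and 9 were called, in 8 genes, of which 8 probe sets were seen more in Br and 1 more in cb. Adjusted over all 45101 probe sets the same test called 0 (0.0%), members included, although 1247 probe sets, 11 of them members, had an unadjusted p under 0.05, so that the calls below hold only for the limited run. The 4 tested members that were not called were probe sets of Plxnc1, Slit2, Sema5b and Sema3c. Without WT cb female replicate 2, which stood apart, the same 9 were called.

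Robo3 was the 1 member that parted the brain parts completely. It is the divergent Robo receptor known for letting commissural axons cross the midline. Its probe set 1436634_at was at level 2 on all 8 Br arrays and at level 0 on all 8 cb arrays, in both sexes and both genotypes (adjusted p = 0.0043, Fisher's exact test, 0.0501 over all probe sets). Such a complete parting was seen for 115 of all probe sets towards Br (0.255%) and for 25 towards cb (0.0554%). The other Robo3 probe set, 1421565_at, was detected on no array, so the call rests on 1 probe set. Robo1 had 2 of 3 probe sets on all arrays, and Robo2 and Robo4 were seen throughout.

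Of the 6 Slit probe sets 4 varied, all of them detected on more Br arrays, and 1 of these was called. The single Slit3 probe set was detected on no array. Slit1 was read by 1425277_at, detected on 6 Br arrays and 0 cb arrays (adjusted p = 0.0409, Fisher's exact test), a call lost in an exact test stratified by sex and genotype (adjusted p = 0.0565). The 2 Br arrays without it were both male, WT Br male replicate 1 and KO Br male replicate 1. Its second probe set, 1440056_at, was detected on all 8 Br arrays and on 5 cb arrays, those of the 4 females and WT cb male replicate 2, which did not pass the bounds of the test. For Slit2, 1451430_at was detected on 5 Br arrays and 0 cb arrays (unadjusted p = 0.0256, adjusted p = 0.0944, Fisher's exact test), 1458140_at on 8 and 6, and a further probe set on all arrays. Slit1 was thus seen in cb by 1 of its 2 probe sets, and Slit2 on every cb array by 1 of its 3.

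Of the called probe sets 4 belonged to semaphorins, and these were all seen more in Br. Sema3e, a secreted semaphorin that binds plexin D1 directly, had 2 of them. Its 1427673_a_at was detected on 8 Br arrays and 1 cb array, KO cb female replicate 1 (adjusted p = 0.0138, Fisher's exact test). Its 1425906_a_at was detected on 6 Br and 0 cb arrays (adjusted p = 0.0409, Fisher's exact test, and 0.0565 in the stratified exact test, which loses the call), missing on WT Br male replicate 2 and KO Br male replicate 1. The other 2 Sema3e probe sets were detected on all 16 arrays, as was Plxnd1, so both ligand and receptor were seen in both brain parts.

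Sema3a, a secreted repellent that acts through neuropilin and class A plexins, had 1449865_at on 8 Br arrays and on 2 cb arrays, KO cb female replicate 2 and KO cb male replicate 1 (adjusted p = 0.0409, Fisher's exact test). The stratified exact test loses this call (adjusted p = 0.0565). A second probe set was detected on 2 cb arrays and 1 Br array, and the remaining one on all 16. Sema6b, a membrane-bound ligand of class A plexins with 1 probe set, was detected on 7 Br arrays, all but KO Br male replicate 1, and on 0 cb arrays (adjusted p = 0.0138, Fisher's exact test). On 5 of the cb arrays, however, it was at the marginal level: both WT females, WT male replicate 1, KO female replicate 1 and KO male replicate 1. With marginal counted as detected its difference fell to 2 arrays and it was no longer tested.

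Among the Eph receptors, Epha4 and Ephb3 were seen more in Br. Epha4, which binds ephrins of both the A and the B kind, had 1456863_at on 8 Br arrays and 1 cb array (adjusted p = 0.0138, Fisher's exact test). That cb array was WT cb female replicate 2, the one with the highest forebrain marker share, and without it the groups of this probe set did not overlap. Its 1421928_at was detected on 8 Br and 6 cb arrays, and the other 3 Epha4 probe sets on all arrays. Ephb3, a receptor of the B ephrins with 1 probe set, was detected on 8 Br arrays and on 2 cb arrays, WT cb female replicate 2 and KO cb female replicate 2 (adjusted p = 0.0409, Fisher's exact test). With marginal counted as detected it was also seen on WT cb male replicate 2, and the call was lost (adjusted p = 0.1, Fisher's exact test), as it was in the stratified exact test (adjusted p = 0.0565). Ephb6, a receptor that lacks kinase activity, was detected on 8 Br and 4 cb arrays and did not pass the bounds of the test.

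Epha8 was the only called member seen more in cb. This receptor of the A ephrins has 1 probe set, 1419341_at, which was detected on 6 cb arrays and 0 Br arrays (adjusted p = 0.0409, Fisher's exact test). The stratified exact test loses this call (adjusted p = 0.0565). The cb arrays that had it were all 4 KO arrays, WT female replicate 2 and WT male replicate 1. WT male replicate 2 was marginal and WT female replicate 1 was not detected. All 8 Br arrays were at level 0, so the groups parted but for those 2 WT cb arrays.

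Plxnc1, the receptor of Sema7a, had 1423214_at on 8 Br and 3 cb arrays (unadjusted p = 0.0256, adjusted p = 0.0944, Fisher's exact test), and of its 5 further probe sets 2 were detected on all arrays, 1 on 3 Br arrays, 1 on 1 Br array and 1 on none. Sema5b was detected by 1435963_at on 7 Br and 4 cb arrays (adjusted p = 0.551, Fisher's exact test) and by its other probe set on all 16. Sema3c was detected by 1420696_at on 3 Br and 2 cb arrays (adjusted p = 1, Fisher's exact test). Of the 8 called genes, Epha4, Sema3a and Sema3e had another probe set on all 16 arrays, and for these 3 the calls show no gene missing from cb. Robo3, Sema6b, Ephb3, Epha8 and Slit1 had none, and 4 of these 5 (all but Slit1) were also called when counted by gene.

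The other genes of the pathway, from 2 lists of coreceptors and further cues and of cytoplasmic effectors, were counted in the same way, beside the 17.1% called over all probe sets tested. Of 107 probe sets of 32 further receptors and ligands (neuropilins, Dcc, adhesion molecules and others), 65 were detected on all arrays, 21 on some and 21 on none, 13 were tested, 3 were called as seen more in Br and 0 as seen more in cb. These were probe sets of Alcam, an adhesion molecule (8 Br and 1 cb arrays), Met, the receptor of hepatocyte growth factor (7 and 0), and Rgmb, a repulsive guidance molecule (6 and 0). Of 136 probe sets of 48 effectors, 94 were detected on all arrays, 7 were tested and 1 was called, for Kalrn (8 Br and 1 cb arrays, adjusted p = 0.0138, Fisher's exact test). The share of the first list detected was 68.3% in cb and 74.8% in Br, and that of the effectors 78.7% and 79%.

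The second question of the design was whether loss of the SINE isoform changed which guidance genes were seen. Between 8 KO and 8 WT arrays 0 of the 13 members tested were called, and the lowest unadjusted p of any member was 0.467 (Fisher's exact test). Over all 3873 probe sets tested 0 were called as well (0.0%), with 38 at an unadjusted p under 0.05, of which 0 were members. The mean share of members detected was 65.3% in KO and 65.1% in WT, a difference of 0.259 percentage points, beside -0.267 over all probe sets. In cb the difference was 0.345 points and in Br 0.172. Brain stem markers were unlike between the genotypes in the female cb. They stood at 78.6% and 71.4% on the KO arrays and at 35.7% and 7.14% on the WT arrays. Their part in the members' calls was not tested. By probe set, 16 of the 38 varying members were detected on more KO arrays, 13 on more WT arrays and 9 on as many of both. A p that misses the threshold does not show that the genotypes are alike, and 8 against 8 calls can miss partial differences. Members that follow the brain part leave little room for a genotype difference. Robo3 1436634_at, on 8 Br and 0 cb arrays, had 4 KO and 4 WT arrays for that reason. An exact test stratified by sex and brain part had 1 member to test and called 0.

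**Figure D4:**
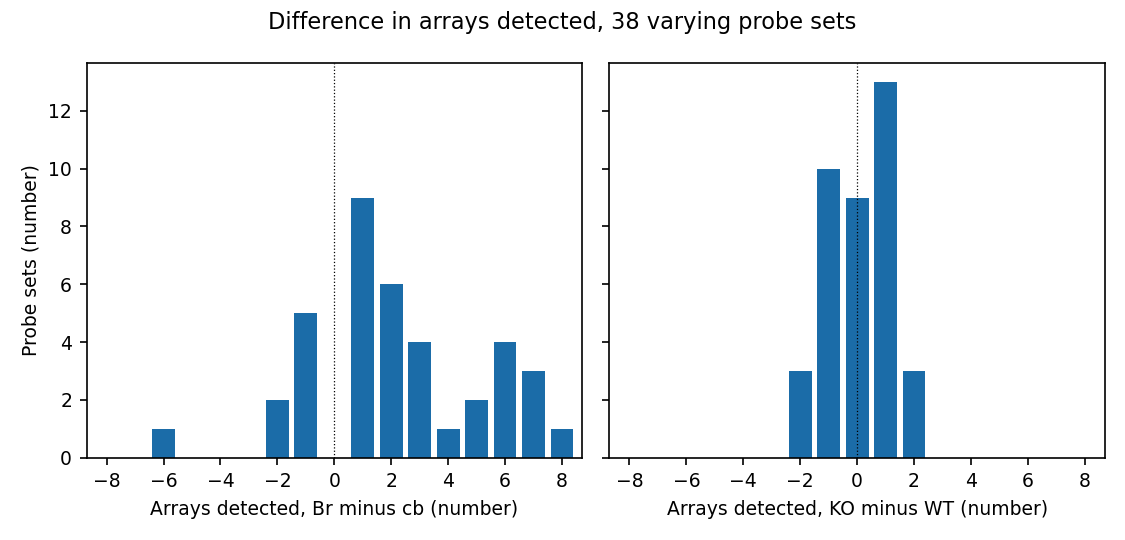
Number of the 38 varying probe sets (vertical axis) by the difference in arrays on which they were detected (horizontal axis, number of arrays), Br minus cb on the left and KO minus WT on the right. Differences ran from -6 to 8 arrays between the brain parts and from -2 to 2 between the genotypes.

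No member differed by more than 2 arrays between KO and WT, and 6 probe sets differed by 2. Epha8 was detected on all 4 KO and on 2 WT cb arrays, Sema3a 1449865_at on 2 KO and 0 WT cb arrays, and Sema6d 1448060_at on 4 KO and 2 WT cb arrays. In the other direction, Ephb6 was detected on 1 KO and 3 WT cb arrays and Sema3b 1448415_a_at on 1 KO and 3 WT arrays in all. Efna1 1416895_at was detected on all cb arrays and, in Br, on 2 KO and 4 WT arrays. These 6 include probe sets chosen after their calls were seen.

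Within a sex and brain part there are 2 KO and 2 WT arrays, for which the smallest exact p is 0.333, so nothing was tested there. A probe set was counted as switched when it was detected on both arrays of one genotype and neither of the other. In the male cb, 1 of the 145 members switched: Ephb6 was detected on both WT arrays and on neither KO array, of which KO cb male replicate 2 was marginal. Over all probe sets 1.1% switched there. In the female cb 0 members switched, beside 1.45% of all probe sets, in the female Br 0, beside 0.94%, and in the male Br 0, beside 1.02%. In the female cb, Ephb6 was detected on WT replicate 2 and KO replicate 2 only. With marginal counted as detected no member switched in the male cb, and in the male Br Sema3b 1448415_a_at was detected in WT alone.

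The sexes parted for 1 member probe set, chosen after its calls were seen. Sema5b, a membrane-bound semaphorin with thrombospondin repeats, was detected by 1435963_at on all 4 female and none of the 4 male cb arrays, and on 4 female and 3 male Br arrays, the last male Br array being marginal. Such a parting of the cb arrays was seen for 73 of all probe sets (0.162%). Over 8 female and 8 male arrays it was not called (unadjusted p = 0.0256, adjusted p = 1, Fisher's exact test), and 0 of all probe sets tested were called between the sexes, with 129 at an unadjusted p under 0.05. Slit1 1440056_at was likewise detected on 4 female and 1 male cb arrays. Of the 38 varying members, 16 were detected on more female cb arrays, 5 on more male cb arrays and 17 on as many of both. The cb females also detected more of the whole array, 59.1% to 60.9% of probe sets against 56.6% to 60.3% in the males, and brain stem markers stood at 7.14% to 78.6% in the cb females against 7.14% on each cb male array. The part of either in the members' calls was not tested.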

How the data were processed

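Arrays were labelled with a 3′ IVT kit. The methods name a human array, but probe sets and platform annotation belong to a mouse array. MAS5 is named by the authors' methods and by the submitters' processing notes, RMA by the authors' results. The deposited values (unit other: a call level of 2, 1, 0, -1 or -2 per probe set, 45101 probe sets on 16 arrays) are no intensities, and their reading as detection calls was inferred, with a value above 5e-38 (level 2) as detected. Of 2320 member values, 23 were marginal, 3 at level -1 and 17 at level -2. Genes were named through the platform annotation (34958 probe sets with 1 symbol, 932 with several, 9211 with none). Members, lists, tests and the bounds of 5 and 11 arrays were chosen with earlier results of these data known. Members were named where called, parted 8 against 0 or switched, where detected nowhere, and, up to 4 per family or semaphorin class in alphabetical order, where every probe set was detected on all arrays; others were chosen after their values were seen. Cell type markers were lists written for this work. Calls were compared by Fisher's exact test at a Benjamini-Hochberg adjusted p under 0.05, and the code was tested on simulated calls. Per the methods, the replicates of a group are separate specimens, each with its own RNA extraction, and 2 arrays per group limit the precision. Alternatives were another reading of marginal levels, all probe sets, a stratified and a paired test, counts by gene and leaving out each array. The software was Python 3.11.15 with scipy 1.17.1, pandas 2.3.3, numpy 2.4.6 and matplotlib 3.10.9. Protein sequences were not used here.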

Additional observations from a re-analysis of the deposited data

Results flagged for a closer look

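Single arrays stood apart from the other 7 of their brain part for 3 of the 9 called probe sets. Epha4 1456863_at was detected on 1 of 8 cb arrays, WT cb female replicate 2. Sema3e 1427673_a_at was detected on 1 of 8 cb arrays, KO cb female replicate 1. Sema6b 1448790_at was detected on 7 of 8 Br arrays, all but KO Br male replicate 1. With a call of only 2 states, any lone array counts as apart by Dixon's criterion, which in measured values flags about 1 in 20 groups by chance, and 22 groups of 8 values were looked at. The calls of these probe sets were kept without each of these arrays.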

How the results depend on the processing

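The number of members called between cb and Br (9, with 8 seen more in Br and 1 more in cb) was 0, 0 and 0 with all probe sets tested, since the adjustment then runs over 45101 tests. The exact test stratified by sex and genotype called 4 (of 12 members tested, 393 of 3026 over all probe sets), 4 and 0, and lost Epha8, Ephb3, Sema3a, Slit1 and 1 of the Sema3e probe sets. By gene 4 were called (of 4 tested, 283 of 1222 over all genes), 3 of them more in Br. Leaving out each array in turn gave 9 to 10 calls with the same 9 among them. Over all probe sets these runs called 705 to 986 of 4680 to 4861 tested. Marginal levels counted as detected gave 8, of which 7 were among the 9, beside 641 of 4006 over all probe sets. The deviations of same-numbered arrays correlated at -0.0181 to 0.0434 between cb and Br, and at up to 0.0647 between the genotypes. With 2 replicates per group this cannot show whether same-numbered cb and Br arrays came from 1 animal. With the replicate block, an exact sign test over 8 pairs, 9 members were called between cb and Br (of 9 tested, beside 759 of 1178 probe sets over the table). Between KO and WT it called 0, where 0 members could be tested. The mean paired differences in the share detected, -7.33 and 0.259 percentage points, equal the main ones under any pairing. Single pairs ran from -11 to -4.83 points between cb and Br and from -2.76 to 2.07 between KO and WT. By gene the share differed between cb and Br by -4.04 points. Between KO and WT 0 members were called under the other alternatives too, of which the stratified test had 1 member to test, while the difference in the share ran from -1.47 by gene to 1.32 without KO cb male replicate 2. Switched members in the male cb fell from 1 to 0 with marginal levels counted as detected, and in the male Br rose from 0 to 1. With 1 array left out, 2 to 3 switched in the female cb, 2 to 5 in the male cb, 0 to 3 in the female Br and 2 to 3 in the male Br. A switch is easier to reach there, since 1 genotype has only 1 array left. The share over all probe sets was not counted for these settings, so the rise is not a result about the members.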
